A study of Mus musculus with 3 samples.

Results

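The major histocompatibility complex (MHC) genes and their partners in antigen presentation were described in bulk RNA-seq. The cells were sorted as lymphatic endothelium from mouse large intestine. The members were the genes whose symbol starts with H2-, together with B2m, Tap1, Tap2, Tapbp, Ciita, Nlrc5, Cd74, Erap1 and Cd1d1, and they numbered 52 of the 24091 genes listed in each library. The series holds 1 group of 3 libraries (replicates 1, 2 and 3) from C57BL/6 mice, with no treatment, age or control group in the sample labels. The cells had been sorted on lymphatic markers that included CD31, podoplanin and LYVE1. Whether each library is from another animal is not in the labels, and all spread given here may thus be technical. Values are in TPM, which scales the abundance of each transcript by its length and by the size of the library.

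MHC class I molecules consist of a heavy chain and the light chain beta-2-microglobulin, and they show peptides from inside the cell to CD8 T cells. The peptides are carried into the endoplasmic reticulum by the TAP transporter. MHC class II molecules pair an alpha with a beta chain, are escorted by the invariant chain CD74 and show peptides taken up from outside to CD4 T cells. Class I is made by nearly all nucleated cells, whereas class II is made mainly by dendritic cells, macrophages and B cells, and by endothelium and intestinal epithelium after interferon gamma. Lymphatic endothelium is known to present self antigens on class I. NLRC5 and CIITA are the transactivators of class I and class II genes.

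The label was first checked against markers. The 6 lymphatic endothelial markers (Lyve1, Prox1, Pdpn, Flt4, Mmrn1 and Reln) were each at 1 TPM or above throughout, against 53.4% of all genes. They summed to 1453, 1524 and 808 TPM in replicates 1, 2 and 3. The 9 colon epithelial markers summed to 15403, 19164 and 20045 TPM, above the lymphatic sum in each library. The pools thus held much RNA of epithelial markers, and the levels below cannot be assigned to lymphatic cells. Replicate 3 stood apart: all 6 lymphatic markers were lowest there, against 22.4% of genes of mean TPM 1 or more. Highest there were 6 of 6 fibroblast and 13 of 15 dendritic cell and macrophage markers, against 42.6% of genes above 0 in any library. In bulk RNA, fewer cells of a type and less RNA per cell cannot be told apart. TPM keeps no read depth, but low values fell on regular steps, and these steps put 1 TPM over 1000 effective bases at about 32.5, 27.8 and 26.4 fragments in replicates 1, 2 and 3.

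The proximal promoters of the class I genes are shown first and those of class II genes after them, as the known elements of the 2 classes differ in part. Any bearing of these elements on levels or on spread between libraries was not tested. Sequences are the 200 bases before a transcript start given in the RefSeq promoter table (GRCm38.p6), 5′ to 3′ on the strand of the gene. For 7 of the 10 genes shown this start is the end of the gene's RefSeq span; for H2-Q7, H2-K1 and H2-DMb2 it lies 15, 272 and 2020 bases inside the span, so their distances are from an internal start. H2-K1 has 2 starts in the table, and the first listed was used. Capitals mark every match, on either strand, to GGGATTNCC (kB site of enhancer A), GAANNGAAA and AAANNGAAA (spacings of interferon response elements), AACNNATG (X1 box), TGACG (X2 box core), CCAAT (Y box) and TGATTGG, which overlaps the Y box on the other strand.
H2-K1, chr17:34000348-34000547, minus strand: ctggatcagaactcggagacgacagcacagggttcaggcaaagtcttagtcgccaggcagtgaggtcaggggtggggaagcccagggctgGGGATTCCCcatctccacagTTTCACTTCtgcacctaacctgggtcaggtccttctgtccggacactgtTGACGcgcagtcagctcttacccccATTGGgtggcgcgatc
H2-D1, chr17:35262894-35263093, plus strand: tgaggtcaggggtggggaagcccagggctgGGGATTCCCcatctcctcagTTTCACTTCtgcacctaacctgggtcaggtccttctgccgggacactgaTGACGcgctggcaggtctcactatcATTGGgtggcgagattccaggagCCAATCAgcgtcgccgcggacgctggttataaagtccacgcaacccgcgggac
H2-Q4, chr17:35379417-35379616, plus strand: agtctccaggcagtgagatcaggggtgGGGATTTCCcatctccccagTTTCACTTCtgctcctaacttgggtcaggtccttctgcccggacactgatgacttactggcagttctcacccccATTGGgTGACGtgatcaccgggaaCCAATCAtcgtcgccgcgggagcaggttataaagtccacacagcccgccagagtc
H2-Q7, chr17:35438955-35439154, plus strand: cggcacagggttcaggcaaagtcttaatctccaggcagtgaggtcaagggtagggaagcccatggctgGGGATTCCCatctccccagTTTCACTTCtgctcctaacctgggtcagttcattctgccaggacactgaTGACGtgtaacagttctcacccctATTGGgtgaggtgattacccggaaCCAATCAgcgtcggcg
B2m, chr2:122147487-122147686, plus strand: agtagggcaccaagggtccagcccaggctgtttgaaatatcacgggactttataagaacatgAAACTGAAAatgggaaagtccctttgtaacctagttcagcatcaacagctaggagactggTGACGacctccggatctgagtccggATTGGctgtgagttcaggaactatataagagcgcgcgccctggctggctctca
The kB, interferon, X2 and Y letters stood in the same order in H2-K1 and H2-D1, beginning 110, 90, 41 and 16 bases before the start in H2-K1 and 170, 150, 101 and 76 bases before it in H2-D1.

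The class II promoters below are marked with the same letters.
H2-Aa, chr17:34287824-34288023, minus strand: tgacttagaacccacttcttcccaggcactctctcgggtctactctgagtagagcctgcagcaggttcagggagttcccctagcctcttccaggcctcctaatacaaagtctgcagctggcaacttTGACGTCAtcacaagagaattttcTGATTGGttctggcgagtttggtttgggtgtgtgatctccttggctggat
H2-Eb1, chr17:34305667-34305866, plus strand: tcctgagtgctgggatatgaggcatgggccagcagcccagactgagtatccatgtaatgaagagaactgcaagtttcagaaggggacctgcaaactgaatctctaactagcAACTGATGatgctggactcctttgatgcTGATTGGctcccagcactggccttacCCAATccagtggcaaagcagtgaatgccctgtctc
H2-DMb1, chr17:34152991-34153190, plus strand: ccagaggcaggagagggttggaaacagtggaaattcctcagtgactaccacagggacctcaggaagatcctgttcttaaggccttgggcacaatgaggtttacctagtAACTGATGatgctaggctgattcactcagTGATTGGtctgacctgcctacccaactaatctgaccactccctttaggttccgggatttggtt
H2-DMb2, chr17:34145049-34145248, plus strand: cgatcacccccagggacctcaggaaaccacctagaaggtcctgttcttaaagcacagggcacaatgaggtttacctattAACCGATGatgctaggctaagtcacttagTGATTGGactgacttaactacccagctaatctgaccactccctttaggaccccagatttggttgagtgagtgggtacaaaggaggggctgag
H2-Ob, chr17:34238705-34238904, plus strand: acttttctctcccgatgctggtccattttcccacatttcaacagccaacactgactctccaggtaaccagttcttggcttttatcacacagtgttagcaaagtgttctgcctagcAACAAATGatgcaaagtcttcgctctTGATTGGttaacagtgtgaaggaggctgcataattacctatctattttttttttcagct
Of the 52 members, 36 had a promoter in the table, 23 of them with a mean TPM of 1 or more. Among these 23, the kB letters GGGATTNCC lay within 250 bases before the start in 5 of 12 class I heavy chain genes (H2-K1, H2-D1, H2-Q4, H2-Q6 and H2-Q7) and in 0 of 6 class II chain genes. They occurred in 0.822% of all 32851 promoter windows of that length. GAANNGAAA lay in 7 of the 12 class I windows and in 0 of 6 class II windows, against 6.31% of all windows, and the other spacing, AAANNGAAA, lay in those of H2-T3, H2-T22, H2-T23 and B2m, against 9.37%.

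For the X1 letters, the matches lay among the class II windows. With shares of all windows this low, a count of 0 of 6 or 0 of 12 is near the share and shows no lack. AACNNATG lay in 4 of 6 class II windows (H2-Eb1, H2-DMb1, H2-DMb2 and H2-Ob) and in 0 of 12 class I windows, against 7.71% of all windows. H2-DMb2 lacked the G that stood before these letters, at the second base upstream, in the other 3 genes. TGATTGG lay in 5 of 6 class II windows and 7 of 12 class I windows, against 7.23%. CCAAT lay in 5 of 6 and 10 of 12, against 33.8%, and TGACG in 1 of 6 and 6 of 12, against 17.8%. These 3 were also common in the M region genes of mean TPM below 1, in 8, 10 and 5 of 11 windows. GGGATTNCC, GAANNGAAA, AAANNGAAA and AACNNATG lay in 0, 1, 1 and 1 of those 11. In H2-Eb1 the X1 letters began 89 bases and the TGATTGG letters 61 bases before the start, in H2-DMb1 92 and 63 bases, in H2-DMb2 121 and 92 bases and in H2-Ob 85 and 59 bases. The distance between them was thus 28 bases in H2-Eb1, 29 in H2-DMb1, 29 in H2-DMb2 and 26 in H2-Ob. H2-Aa held the X2 letters TGACG on both strands, 74 and 71 bases before the start. The window of the remaining class II gene, H2-DMa, held neither the X1 nor the Y box letters. Some genes with matches are close relatives, such as H2-Q6 with H2-Q7 and H2-DMb1 with H2-DMb2, so their matches may not be separate cases. These are matches of letters, chosen and shortened from known elements after the sequences were seen, and they do not show binding.

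B2m and the class I heavy chain genes H2-D1, H2-K1 and H2-T23 were the 4 most abundant members, with an SD of log2(TPM + 1) of 0.07 or less. Other class I genes were lower and some varied more, up to an SD of 0.45 for H2-Q2. B2m (Entrez 12010, chromosome 2, 122147687 to 122153082) stood at 1694, 1702 and 1559 TPM in replicates 1, 2 and 3, a mean of 1652 ± 80.4 (SD, n = 3). H2-D1 (Entrez 14964, chromosome 17, 35263094 to 35267497) stood at 1114, 1167 and 1131 TPM and H2-K1 (Entrez 14972, chromosome 17, 33996012 to 34000619) at 982, 1022 and 963 TPM. H2-D1 and H2-K1 encode the 2 classical heavy chains of this strain, and no library stood apart for either. The third classical gene, H2-L, which C57BL/6 mice lack, was listed at 0 in all 3 libraries. Every library had more H2-D1 than H2-K1, by 0.20 ± 0.03 on the log2(TPM + 1) scale, or 1.15-fold, and B2m exceeded H2-K1 by 0.74 ± 0.05, or 1.67-fold. A two-sided exact permutation test by sign flips gave p = 0.25 for each, the lowest value possible with 3 libraries, and 0.333 once adjusted by Benjamini-Hochberg over 8 gene pairs. Most of their transcript sequence was distinct from that of other genes, with 14.3% of the 50-base words of H2-D1 and 8.11% of those of H2-K1 also present in a transcript of another gene.

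The non-classical (class Ib) genes added a second, lower layer. H2-T23, which encodes Qa-1, the molecule that shows class I leader peptides to the receptor CD94/NKG2A, was the fourth most abundant member at 450.4, 445 and 461 TPM, with an SD of 8.07. Its level was 0.458, 0.436 and 0.478 of that of H2-K1. No other class Ib gene came near it, and the 3 libraries lay close together. H2-Q4 stood at 108, 111 and 98.2 TPM. H2-T9 stood at 69.1, 58.8 and 60.6 TPM. H2-M3, which presents N-formylated bacterial peptides, stood at 17.8, 19.0 and 16.5 TPM. The spread of these 3 genes between libraries was small beside their level.

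Members of the Q region differed in which library was highest. H2-Q7, which encodes Qa-2, stood at 83.5, 78.7 and 55.9 TPM, lowest in replicate 3. H2-Q6 showed the same order of replicate 3 below the others, at 19.8, 20.8 and 12.1 TPM. H2-Q2 went the other way, with 46.3, 72.2 and 85.1 TPM, highest in replicate 3 and lowest in replicate 1. H2-Q1 (21.1, 24.8 and 29.0 TPM) had the order of H2-Q2, with a smaller range. H2-Q8 (18.8, 20.5 and 21.9 TPM) and H2-Q10 (9.85, 11.3 and 11.95 TPM) also had that order, and H2-Q5, annotated as a transcribed pseudogene, stood at 6.37, 11.2 and 10.8 TPM. H2-Q10 is best known as a gene of the liver, whose product is secreted. No listed Q gene of the 8 was below 1 TPM anywhere, where 53.4% of all genes were at 1 TPM or above in every library. The sum of the 8 was 314, 351 and 325 TPM and varied less than H2-Q2 or H2-Q7 did.

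Of the T region genes, H2-T3, which encodes the thymus leukaemia antigen known from intestinal epithelium, stood at 17.01, 24.9 and 26.9 TPM, lowest in replicate 1. H2-T22, whose product is a known ligand of gamma delta T cells, stood at 13.9, 20 and 20.1 TPM, and its relative H2-T10, annotated here as a transcribed pseudogene, at 4.22, 4.10 and 3.73 TPM. H2-T10 was thus below H2-T22 in every library. H2-T-ps (3.01, 4.22 and 2.64 TPM), H2-T24 (1.47, 2.51 and 2.38 TPM) and H2-Bl, another transcribed pseudogene (0.971, 0.677 and 1.94 TPM), were lower, and the last of these passed a mean of 1 only through replicate 3. The pseudogene H2-K2 of the K region stood at 19.0, 20.2 and 21.1 TPM. The order of the libraries for H2-T3 and H2-T22, with replicate 1 lowest, was also the commonest one in the table, where 62.6% of the 13606 genes of mean TPM 1 or more were lowest in replicate 1.

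The M region was nearly silent apart from H2-M3. Of its 12 listed genes, H2-M3 alone reached a TPM of 1 in every library. H2-M2 followed at 0.999, 0.542 and 0.955 TPM, H2-M5 was above 0 in replicate 1 only, at 0.468 TPM, and H2-M9 in replicate 3 only, at 0.183 TPM. H2-M10.2 and H2-M10.6 averaged 0.0531 and 0.0489 TPM. The other 6 (H2-M1, H2-M11, H2-M10.1, H2-M10.3, H2-M10.4 and H2-M10.5) were listed at 0 throughout; the M10 genes are known from vomeronasal neurons.

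**Figure D1:**
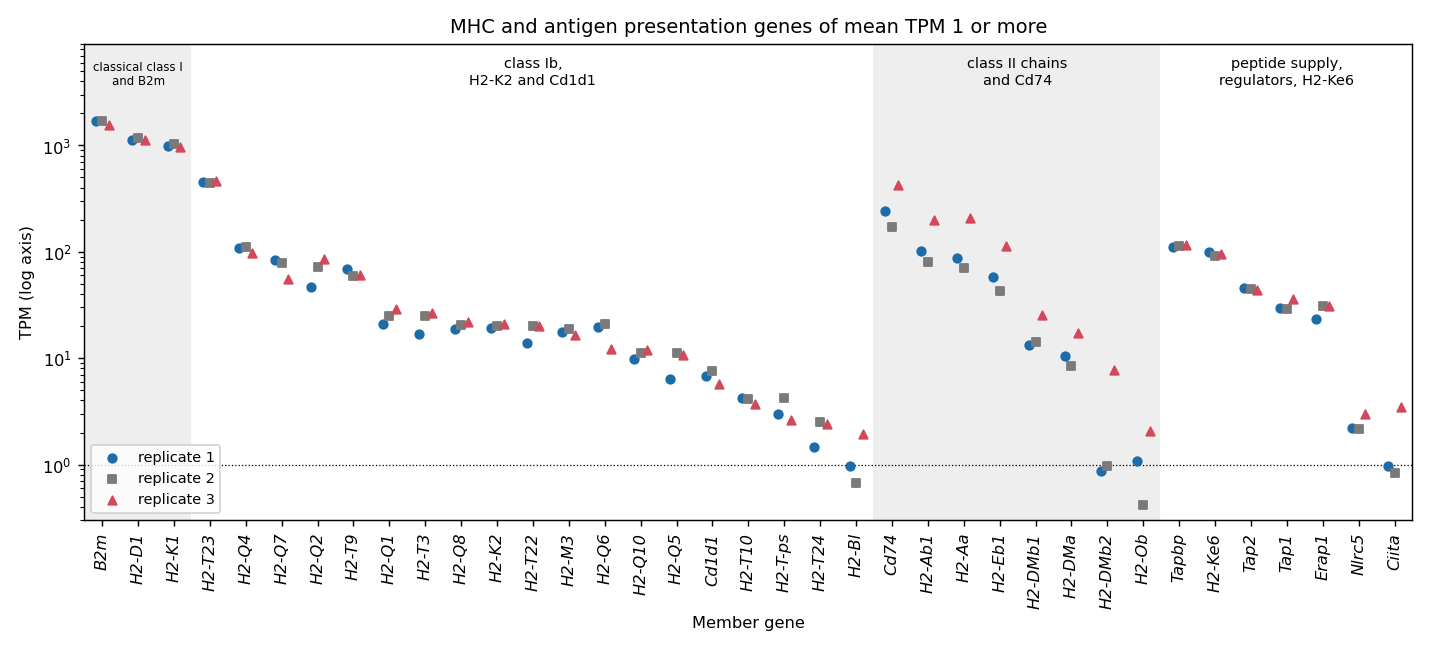
TPM (log axis) of the 37 members of mean TPM 1 or more, grouped by role; each gene has 1 point per library and the dotted line marks a TPM of 1. B2m, H2-D1 and H2-K1 lie near or above 963 TPM with points close together, whereas replicate 3 lies above the other libraries for Cd74 and every class II chain gene shown.

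Class I genes of the Q and T regions are close relatives, and the authors' way of assigning reads to them is not given in the sources used here. For each member with a GENCODE M21 transcript, the share of its 50-base words that also occur in a transcript of another gene was computed from the longest transcript. Among the 17 class I heavy chain genes of mean TPM 1 or more with such a transcript, this share ranged from 0.576% for H2-M3 to 35.8% for H2-T22, with a median of 16.1%, and 6 genes exceeded 25% (H2-Q5, H2-Q6, H2-Q7, H2-T10, H2-T22 and H2-T-ps). H2-Q6 shared most with H2-Q7, and H2-T22 with H2-T10, which held 32% of its words. Values of these genes are therefore uncertain as single-gene levels, while H2-T3 (1.24%), H2-T24 (3.23%) and H2-M3 shared little. With words of 100 bases the shares fell to 9.38% for H2-T22 and 0% for H2-K1. H2-Q8, H2-T9 and H2-L were not matched to a transcript.

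**Figure D2:**
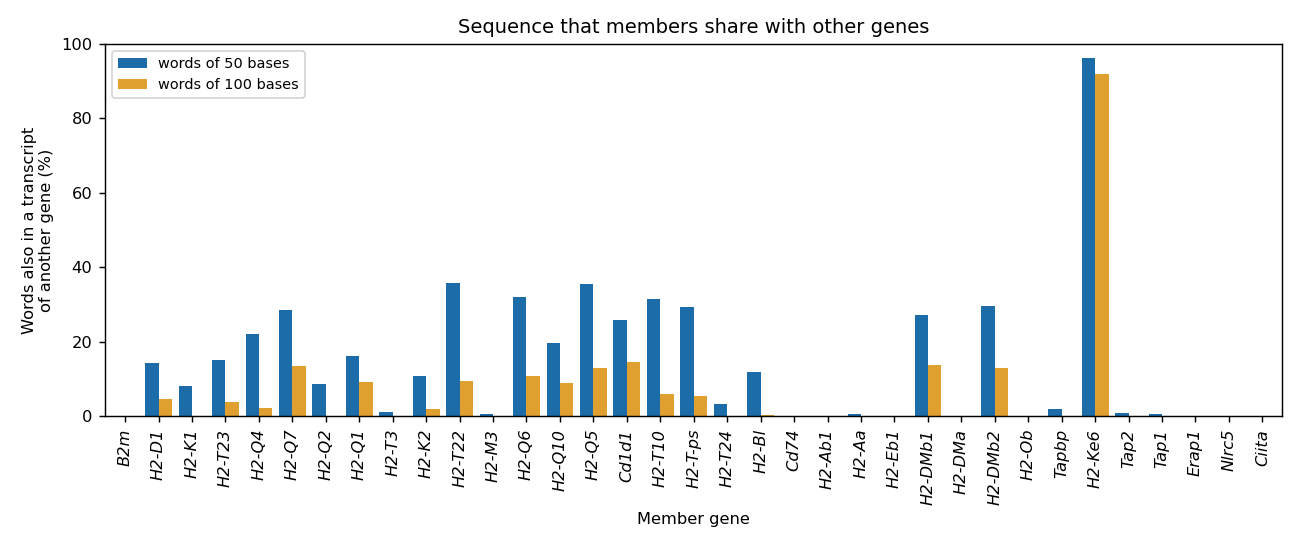
Percent of the 50-base and 100-base words of each member's longest GENCODE M21 transcript that also occur in a transcript of another gene, for members of mean TPM 1 or more. Bars are high for many Q and T genes, such as 35.8% for H2-T22 at 50 bases, for the pair H2-DMb1 and H2-DMb2, and for H2-Ke6 at 96.3%; they are at 0 for B2m, Cd74 and H2-Ab1.

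Class II genes were less abundant than classical class I genes and differed between libraries. H2-Ab1 (Entrez 14961, chromosome 17, 34263227 to 34269418), the beta chain of I-A, stood at 103, 79.8 and 198 TPM in replicates 1, 2 and 3. Its alpha chain partner H2-Aa (Entrez 14960, chromosome 17, 34282744 to 34287823) stood at 87.2, 70.9 and 206 TPM. H2-Eb1 (Entrez 14969, chromosome 17, 34305867 to 34316674), the beta chain of I-E, stood at 57.8, 43.1 and 113 TPM. Each of these 3 genes was highest in replicate 3 and lowest in replicate 2, with a TPM ratio of the highest to the lowest library of 2.48 for H2-Ab1, 2.91 for H2-Aa and 2.63 for H2-Eb1.

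C57BL/6 mice are known to make no I-E molecule, because their alpha chain gene carries a promoter deletion. The alpha chain gene, listed as H2-Ea-ps, was at 0 TPM in all 3 libraries, beside H2-Eb1 at a mean of 71.4 ± 37.1 TPM. H2-Eb2, a second beta chain gene, stood at 0.126, 0.285 and 0.562 TPM. The I-E beta chain was thus transcribed with no listed transcript of its partner.

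The invariant chain gene Cd74 (Entrez 16149) stood at 242, 172 and 423 TPM, with the same order of libraries as H2-Ab1. Within a library, Cd74 exceeded H2-Ab1 by 1.23, 1.09 and 1.09 on the log2(TPM + 1) scale, 1.14 ± 0.08 or 2.2-fold. H2-Ab1 exceeded H2-Eb1 by 0.82, 0.87 and 0.80, or 1.78-fold. Ratios among these genes thus stayed nearly constant while their levels changed more than 2-fold. H2-Ab1 and H2-Aa did not differ beyond their spread (0.11 ± 0.15, log2), with H2-Ab1 higher in 2 of 3 libraries. Sign flips gave an exact permutation p of 0.25 for the first 2 pairs (0.333 adjusted over 8 pairs) and 0.5 for the third (0.5 adjusted).

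The peptide exchange factors of class II followed. H2-DMa stood at 10.54, 8.40 and 17.3 TPM and H2-DMb1 at 13.2, 14.1 and 25.5 TPM; their products form the DM heterodimer that removes the invariant chain fragment from class II. H2-DMb1 was above H2-DMa each time (H2-DMa over H2-DMb1, -0.50 ± 0.19, log2; exact permutation p by sign flips = 0.25, adjusted 0.333). H2-DMb2, a second beta chain gene of DM, stood at 0.861, 0.965 and 7.76 TPM, the widest range of any member of mean TPM 1 or more (9.02-fold as a TPM ratio). It rested on an estimated 36, 36 and 263 fragments and shared 25.2% of its 50-base words with H2-DMb1, so part of its reads could belong to that gene. The ratio of H2-DMb2 to H2-DMb1 was 0.0651, 0.0687 and 0.305, so H2-DMb2 did not keep a fixed share of the level of H2-DMb1.

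H2-Oa and H2-Ob encode DO, an inhibitor of DM known mainly from B cells. H2-Ob stood at 1.08, 0.413 and 2.04 TPM and H2-Oa at 0.394, 0.611 and 1.54 TPM. Both were highest in replicate 3, at levels close to the threshold, on an estimated 133 and 46 fragments there.

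Taking the class II chains as a list, 9 of 9 genes (H2-Aa, H2-Ab1, H2-Eb1, H2-Eb2, H2-DMa, H2-DMb1, H2-DMb2, H2-Oa and H2-Ob) were highest in replicate 3, where 42.6% of the genes above 0 in any library were highest. Of these, 7 passed a mean TPM of 1, H2-DMb2 and H2-Ob only through replicate 3. Because that filter selects H2-DMb2 and H2-Ob for the spread itself, the spread was read on the 5 genes at 1 TPM or above in every library (H2-Aa, H2-Ab1, H2-Eb1, H2-DMa and H2-DMb1), a choice made after seeing the data. Of these, 3 (H2-Aa, H2-Ab1 and H2-Eb1) had a highest value of TPM + 1 at least 2-fold above the lowest, against 5.1% of the 12862 genes that met the same condition. For the same 3, the SD of log2(TPM + 1) lay above percentile 95 of genes of similar level, against 4.42%. Of the 18 class I heavy chain genes that met the condition, 0 had such a 2-fold range and 1, H2-Q2, had such an SD. The median SD was 0.67 for the 5 class II genes and 0.18 for the 18 class I genes, against 0.18 for all 12862. With H2-DMb2 and H2-Ob, 5 of 7 had the 2-fold range, where 7% of the 13606 genes of mean TPM 1 or more had it, and 4 of 7 the high SD, which calls 5%; these 2 counts hold what the filter selected. Without replicate 3, 0 class II genes met either rule, and without replicate 2, 2 genes had the 2-fold range.

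The 9 class II chains summed to 274, 219 and 573 TPM (355 ± 190.5), or 0.0274%, 0.0219% and 0.0573% of all TPM. The 31 class I heavy chain genes summed to 2990, 3120 and 3016 TPM (3042 ± 68.9), or 0.304 ± 0.00689% of all TPM, of which H2-K1 and H2-D1 made up 70.1%, 70.2% and 69.4%. The class I sum was 10.9, 14.3 and 5.27 times the class II sum in replicates 1, 2 and 3. On the log2(TPM + 1) scale, the mean over the 9 class II chains minus that over H2-K1 and H2-D1 was -6.81, -7.02 and -5.83, a mean of -6.55 ± 0.64. The class II share therefore differed between libraries while the class I share hardly did. Without replicate 3 the mean class II share was 0.0246%, against 0.0355% with it, and the difference from H2-K1 and H2-D1 was -6.92.

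**Figure D3:**
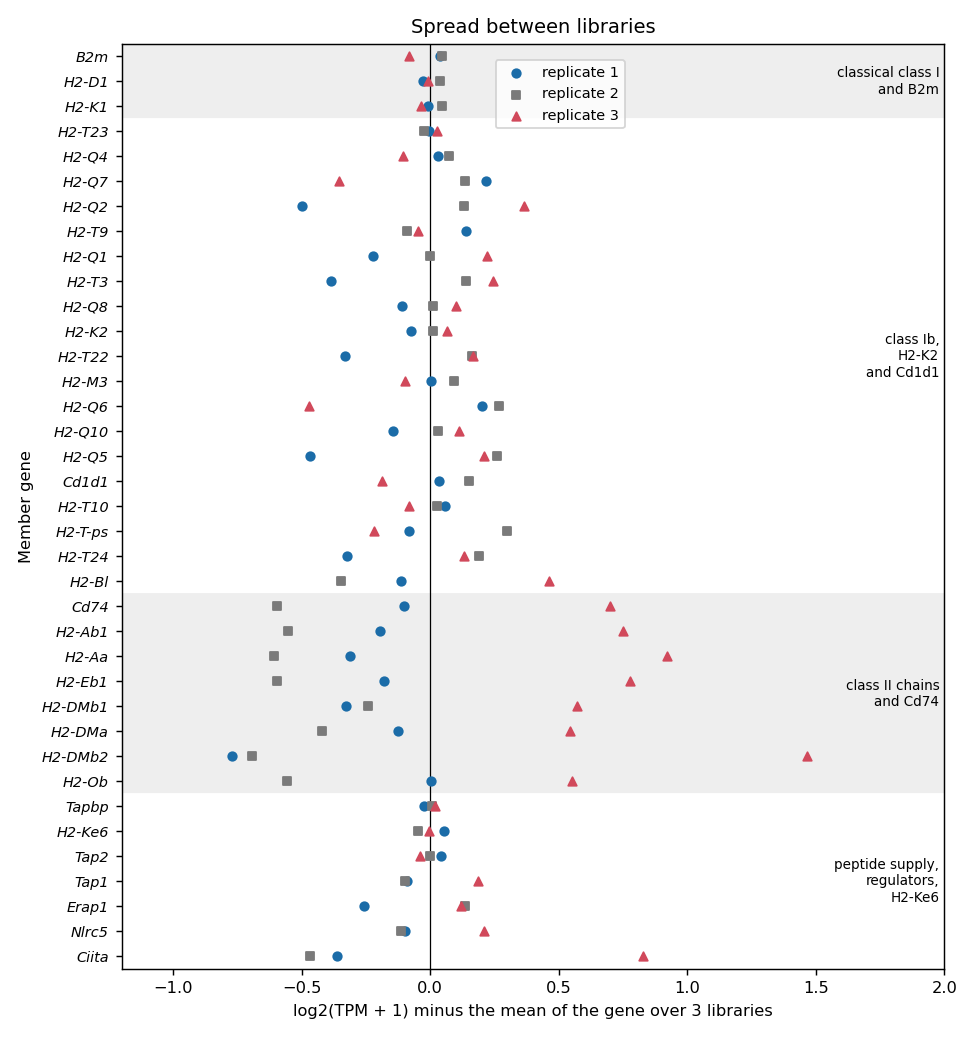
For the 37 members of mean TPM 1 or more, log2(TPM + 1) in each library minus the mean of the gene over the 3 libraries; points are libraries and the shaded bands are gene groups. Class I points lie close to 0 for H2-K1 (SD 0.04) and H2-T23 (SD 0.03), and replicate 3 lies to the right of the other libraries for all class II chains shown, for Cd74 and for Ciita.

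The summed markers of dendritic cells and macrophages, which carry class II, had the same order of libraries as H2-Ab1. The 15 dendritic cell and macrophage markers summed to 255, 179 and 561 TPM. Of the 12 of mean TPM 1 or more, 9 were, like H2-Ab1, highest in replicate 3 and lowest in replicate 2, against 9.51% of all genes of that level. Itgax, counted in both the 12 and the 9, passed that mean only through replicate 3, so its part in the count was selected by the filter. The other 11 were at 1 TPM or above in every library. No marker of this list was at 0 in any library. C1qa stood at 45.8, 39.0 and 104 TPM and Csf1r at 7.21, 4.23 and 18.2 TPM, both in that order. The dendritic cell markers were low and did not share 1 order. Itgax (0.936, 0.491 and 2.025 TPM), Cd209a (0.311, 0.0288 and 2.149 TPM) and Xcr1 (0.212, 0.176 and 0.504 TPM) had the order of H2-Ab1. Flt3 (0.0357, 0.101 and 0.253 TPM) was also highest in replicate 3 but lowest in replicate 1. Xcr1 and Flt3 stayed below 1 TPM. Zbtb46 (1.63, 1.89 and 1.63 TPM) and Clec9a (1.54, 1.62 and 1.53 TPM) were instead above 1 TPM throughout, about level and highest in replicate 2. The ratio of the class II sum to this marker sum was 1.08, 1.22 and 1.02, a range of 1.19-fold. The ratio to the fibroblast sum was 1.52, 1.78 and 1.29, a range of 1.38-fold, and the ratios to the B cell, epithelial, blood endothelial and lymphatic sums ranged 1.9-fold, 2.51-fold, 2.52-fold and 4.94-fold. More than 1 list thus kept nearly in step with the class II sum. No ratio to the T and NK cell sum was computed, although that sum (4.59, 4.003 and 9.56 TPM) also had the order of H2-Ab1. These ratios therefore do not single out a closest list. The part of these cells in the class II level was not tested.

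The 6 B cell markers summed to 5.77, 6.91 and 22.96 TPM, none at 0, with Ms4a1 at 0.582, 0.611 and 3.04 TPM. All 6 were highest in replicate 3, against 42.6% of genes above 0 in any library. H2-DMb2 lay at 1.48, 1.58 and 2.56 times the level of Ms4a1, both low in replicates 1 and 2 and higher in replicate 3. The 5 T and NK cell markers summed to 4.59, 4.003 and 9.56 TPM, also highest in replicate 3, and the pan-leukocyte marker Ptprc stood at 1.42, 2.67 and 6.22 TPM, lowest in replicate 1. Of the 6 blood endothelial markers, 5 had a 2-fold range, against 7% of genes of mean TPM 1 or more. The order of H2-Ab1 was found in 3, against 9.51% of those genes. Among these 3 were Plvap (88.2, 53.4 and 178 TPM) and Ackr1 (5.85, 1.45 and 14.98 TPM). Emcn (156, 146 and 85.7 TPM) and Gpihbp1 (193, 176 and 88.9 TPM) were instead lowest in replicate 3. Of the 6, 4 were highest and 2 lowest in replicate 3, against 41.3% and 22.4% of genes of mean TPM 1 or more. The blood endothelial sum thus mixes opposite directions. Markers of fibroblasts, which are not best known for class II, summed to 180.3, 123 and 443 TPM. All 6 had the order of H2-Ab1, again against 9.51% of genes of mean TPM 1 or more. The lymphatic marker sum ran against it, with 1453, 1524 and 808 TPM, and the epithelial sum was lowest in replicate 1, at 15403, 19164 and 20045 TPM. The part of any of these cells in the class II level was not tested, and which cells carried the class II transcripts cannot be told apart in pooled RNA.

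**Figure D4:**
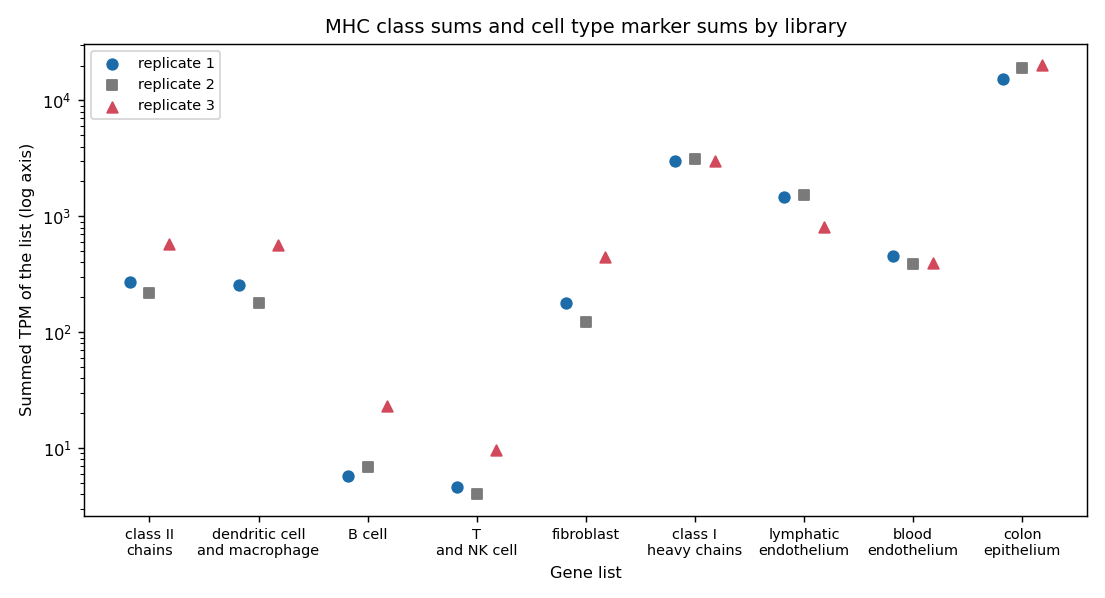
Summed TPM (log axis) of the class II chains, the class I heavy chains and 7 lists of cell type markers, with 1 point per library. The class II sum is highest in replicate 3 (573 TPM) as are the sums of dendritic cell and macrophage (561 TPM), B cell and fibroblast markers, while the class I sum lies between 2990 and 3120 TPM and the lymphatic sum is lowest in replicate 3 (808 TPM).

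Genes of peptide supply were all expressed, with tapasin highest. Tapbp, which encodes tapasin, the chaperone that joins class I to the TAP transporter, stood at 111, 114 and 115 TPM (113 ± 1.81). Tap2 stood at 46.2, 44.8 and 43.6 TPM and Tap1 at 29.4, 29.3 and 35.9 TPM, the 2 subunits of the transporter. Erap1, the aminopeptidase that trims peptides for class I, stood at 23.4, 31.0 and 30.7 TPM. All 4 genes were at 1 TPM or above throughout, against 53.4% of all genes, and 0 of 4 met the 2-fold rule, near the 7% of all genes that did. Tap1 lay below Tap2 throughout (Tap1 over Tap2, -0.50 ± 0.20, log2; exact permutation p by sign flips = 0.25, adjusted 0.333), less so in replicate 3, at -0.27.

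The transactivator genes were low. Nlrc5, the class I transactivator, stood at 2.20, 2.17 and 2.97 TPM, on an estimated 526, 448 and 578 fragments. Ciita (Entrez 12265, chromosome 16, 10480014 to 10531064), the class II transactivator, stood at 0.975, 0.834 and 3.50 TPM, on 184, 136 and 537 fragments, and passed a mean of 1 only through replicate 3. Ciita thus had the order of libraries of H2-Ab1, with a 4.2-fold range as a TPM ratio and a 2.46-fold range of TPM + 1. Nlrc5 exceeded Ciita by 0.69 and 0.79 (log2) in replicates 1 and 2 and lay 0.18 below it in replicate 3 (-0.18), a mean of 0.43 ± 0.54 (exact permutation p by sign flips = 0.5, adjusted 0.5). The level of H2-Ab1 was 105, 95.7 and 56.6 times that of Ciita.

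The remaining members were Cd1d1 and H2-Ke6. Cd1d1, which presents lipids to natural killer T cells and lies outside the complex on chromosome 3, stood at 6.85, 7.51 and 5.72 TPM, with 25.8% of its 50-base words shared with Cd1d2. H2-Ke6 lies in the complex but encodes a hydroxysteroid dehydrogenase (synonym Hsd17b8) and no MHC chain. It stood at 98.8, 92.2 and 94.95 TPM, and 96.3% of its words also occur in Gm20427, so its value is uncertain.

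In all, 33 of the 52 members were at 1 TPM or above in each library, as were 53.4% of all genes. A mean TPM of 1 or more was reached by 37 members, 7 more were above 0 in some library, and 8 were listed at 0 throughout. Of the 37, 4 (H2-DMb2, Ciita, H2-Ob and H2-Bl) passed only through replicate 3, so the counts that follow are a description and support nothing. The highest value fell in replicate 1 for 5, in replicate 2 for 11 and in replicate 3 for 21 of the 37, against 17%, 41.7% and 41.3% of the genes tested. The lowest fell in replicate 1 for 14, in replicate 2 for 13 and in replicate 3 for 10, against 62.6%, 14.9% and 22.4%. All 7 members with a 2-fold range (H2-Aa, H2-Ab1, H2-Eb1, H2-DMb2, H2-Ob, Cd74 and Ciita) were highest in replicate 3, a combination met by 4.63% of the genes tested. When the 37 were ordered by mean, 8 of the 36 neighbouring pairs were separated in all library values, among them B2m over H2-D1, H2-D1 over H2-K1, H2-K1 over H2-T23 and H2-T23 over Cd74. The other 28 neighbours overlapped, so below Cd74 the order of most neighbours is not resolved by 3 libraries.

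Genes of the wider pathway were mostly well expressed. The 5 immunoproteasome genes were all above 1 TPM throughout, where 53.4% of all genes were at 1 TPM or above. Psme2 stood at 332 ± 19.4, Psme1 at 298 ± 32.8, Psmb10 at 196 ± 21.4, Psmb9 at 118 ± 14.8 and Psmb8 at 92.3 ± 16.1 TPM (SD, n = 3). Psmb8, Psmb9 and Psmb10 encode the catalytic subunits that replace the standard ones after interferon gamma, and 0 of the 5 genes had a 2-fold range, near the 7% of all genes tested. The 4 genes of loading and folding were led by Calr (594 ± 23.3), Pdia3 (440.1 ± 23.9) and Canx (126 ± 7.11), chaperones of the endoplasmic reticulum, with Tapbpl, a relative of tapasin, at 31.8 ± 4.55 TPM. The enzymes that prepare class II peptides in endosomes were present too, with Ctsd at 309 ± 23.7, Ifi30 at 208 ± 11.1, Ctss at 185 ± 29.4, Ctsb at 179 ± 2.75 and Lgmn at 107 ± 5.81 TPM. Ctss encodes cathepsin S, which cuts the invariant chain, and stood at 168, 167 and 219 TPM, highest in replicate 3 like the class II chains but with a TPM ratio of 1.31. Of the 6 processing genes, 0 had a 2-fold range, again near the 7% of all genes.

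The 14 measured regulators were likewise all above 1 TPM throughout, where 53.4% of all genes were at 1 TPM or above. Of the 14, 0 had a 2-fold range, against 7% of the genes tested. The interferon gamma receptor genes Ifngr1 (129 ± 7.9) and Ifngr2 (103 ± 15.2) led, and Irf1 (97.2 ± 15) and Irf8 (49.9 ± 8.74) were also among the highest, factors that act downstream of interferon signals or in immune cells. The RFX genes, whose products bind the X box and which are named here for that role although they are not among the highest of the list, were lower, with Rfxap at 17.8 ± 1.26, Rfxank at 13.2 ± 1.48 and Rfx5 at 5.51 ± 0.974 TPM. Of the 14, 11 were highest in replicate 3, against 41.3% of the genes of mean TPM 1 or more, and 0 were both highest in replicate 3 and lowest in replicate 2, against 9.51%. March8 stood at 28.4 ± 5.52 and March1, which encodes a ubiquitin ligase that removes class II from the surface, at 0.426 ± 0.0984 TPM.

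Costimulatory genes were low. Cd80 stood at 0.317, 0.187 and 0.368 TPM and Cd86 at 0.514, 0.164 and 1.20 TPM, the ligands of CD28 on T cells, and neither was at 1 TPM in all libraries. Icosl (5.94 ± 1.53), Cd274, which encodes the inhibitory ligand PD-L1 (4.43 ± 0.273), and Cd40 (1.84 ± 0.378) were. Cd80 and Cd86 both had the order of libraries of H2-Ab1, at these low levels, and Cd274 was about level, at 4.41, 4.72 and 4.17 TPM. Of the MHC-like genes outside the complex, Fcgrt, the neonatal Fc receptor gene, stood at 127 ± 15.2, Hfe at 17.5 ± 1.7, Procr at 5.84 ± 3.93, Mr1 at 4.69 ± 0.652 and Azgp1 at 3.75 ± 0.96 TPM. Procr, which also marks endothelium, was the only one of these 6 genes with a 2-fold range, at 4.62, 2.67 and 10.23 TPM.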

How the data were processed

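The authors deposited 1 table per library with a TPM value for each of 24091 genes, named by Entrez ID and symbol. The submitters' processing notes name mm10, Cell Ranger 6.0.1 and HTSeq; how TPM was computed and the annotation are not given in the sources used here. The members and lists were chosen with earlier results of these data known. Every member of mean TPM 1 or more is named with its value in each library; up to the 5 highest genes are named of each pathway list, and 3 RFX genes besides; values of some listed genes are not reported here. Annotation came from RefSeq GRCm38.p6 (50 of 52 members matched) and GENCODE M21. Values were taken as log2(TPM + 1), with fold changes between genes and the 2-fold rule on that scale; ratios of sums and of levels between or within genes, where so named, are of TPM. Variable genes had an SD above percentile 95 of 20 bins of mean level. Single-gene ratios were tested by sign flips over 3 libraries (exact permutation test, two-sided), which cannot give p under 0.25; lists were not tested. Fragment numbers are rough estimates from steps in low TPM values, using the longest transcript; no counting interval was computed. The rules were also run on simulated data, with the same spread for every gene and shifts only in well expressed genes. Their detection of shifts in low genes was thus not tested. Alternatives were other pseudocounts, filters, percentiles, bins and scalings, medians, leaving out each replicate and, added after seeing the data, requiring a TPM of 1 in every library. Python 3.11.15, numpy 2.4.6, pandas 2.3.3 and matplotlib 3.10.9 were used.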

Additional observations from a re-analysis of the deposited data

How the results depend on the processing

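The class II minus classical class I difference (-6.55, log2) was -5.73 over members of mean TPM 1 or more, by the construction of that filter. The class I share of TPM (0.304%) was 0.397% without ribosomal protein genes and Mir6236, again by construction. Members with a 2-fold range (7) numbered 4 at a mean TPM of 5 or more, where fewer genes are tested. At a TPM of 1 or more in every library, a condition added after seeing the data, 4 members and 3 class II chain genes (5 otherwise) had that range, again with fewer genes tested. Leaving out each replicate in turn gave 0 to 7 such members and 0 to 5 such class II chain genes, and 1 to 9 variable members (6 with all libraries) and 0 to 6 variable class II chain genes (4 with all), with the lowest counts without replicate 3. The means of the 8 gene ratios kept their direction in 40 of 40 alternatives. For ratios with the same direction in all 3 libraries, this outcome was fixed in advance and shows nothing. H2-Ab1 over H2-Aa (-0.06) and Nlrc5 over Ciita (-0.18) ran against their mean in replicate 3. Median-of-ratios scaling moved log2 values by 0.15, -0.08 and -0.09 in replicates 1, 2 and 3 and left 5 class II chain genes with a 2-fold range. No paired analysis was possible because there is 1 group. Members of a mean TPM near 1 rest on few fragments, and TPM gives no counting error for them.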
